A study of Mus musculus with 12 samples.

Results

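The miR-132 and miR-212 cluster is a pair of microRNA hairpins that sit side by side in the mouse genome and give 4 mature miRNAs, miR-132-5p, miR-132-3p, miR-212-5p and miR-212-3p. They were taken by name (mmu-miR-132-5p, mmu-miR-132-3p, mmu-miR-212-5p and mmu-miR-212-3p) from a table of 1929 mature miRNAs, and all 4 were present in it. Small RNA was sequenced from the livers of 12 C57BL/6 mice in which carbon tetrachloride (CCl4), a liver toxin injected into the peritoneum, had been used to bring on fibrosis. Daily dosing into the stomach was with Pien Tze Huang (PZH), a Chinese herbal remedy, in 6 of the mice, and with double distilled water in the other 6. The sources used here do not give doses, ages or the length of treatment. Every mouse received CCl4, so there is no uninjured liver, and the only comparison the design allows is PZH against water within injured livers.

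miRNAs are about 22 bases long and repress messenger RNAs that pair with their seed, bases 2 to 8 from the 5′ end. The miR-132 and miR-212 hairpins are cut from a shared primary transcript whose transcription is induced by the factor CREB, and they are best known in neurons. In the liver, miR-132 has been linked to hepatic stellate cells, the cells that turn into collagen-producing myofibroblasts during fibrosis. The 3p arm of each hairpin is the arm usually described as functional. In whole liver, fewer cells of a type and less miRNA per cell cannot be told apart.

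The mature sequences show what the members share, and are printed here from RefSeq (build GRCm38.p6), 5′ to 3′, with the seed in capitals.
miR-132-3p: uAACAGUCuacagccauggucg
miR-212-3p: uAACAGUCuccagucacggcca
miR-132-5p: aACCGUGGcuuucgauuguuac
miR-212-5p: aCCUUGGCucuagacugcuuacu

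The 3p arms carry the same seed, AACAGUC, so they are expected to recognise overlapping sets of messages. No other of the 1679 mature miRNA names in the RefSeq table had that seed, and the 5p seeds were each found in 1 name only. The 3p arms were identical at 17 of 22 positions and differed by A10C, C14U, U17C, U20C and G22A, with the base of miR-132-3p first and positions counted from 1 at the 5′ end. The longest run they shared was 9 bases. The 5p arms were identical at 9 of the 22 positions compared, and their longest shared run was 5 bases. The sources used here do not say how the authors assigned reads that match more than 1 miRNA.

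The hairpins themselves place both arms of each miRNA, with the mature arms in capitals.
Mir212: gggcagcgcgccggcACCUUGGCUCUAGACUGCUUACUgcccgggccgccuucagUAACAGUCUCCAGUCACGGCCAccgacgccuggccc
Mir132: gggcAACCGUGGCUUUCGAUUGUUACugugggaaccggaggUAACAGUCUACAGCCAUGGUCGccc

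In GRCm38, Mir212 lies at chr11:75173388-75173478 and Mir132 at chr11:75173682-75173747, both on the plus strand, with 203 bases between them. Both fall in the intron between exon 1 (chr11:75172560-75172597) and exon 2 (chr11:75173978-75174161) of the non-coding gene 1700016P03Rik, and neither overlaps any of its 3 exons. The nearest protein-coding genes are Ovca2, 2195 bases away, and the tumour suppressor Hic1, 3869 bases away, both on the minus strand.

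All 4 members were readily counted but were of moderate to low abundance in these livers. Library totals ranged from 4961913 to 20211784 counts. The members together held 672 to 2572 counts per library. That was 0.00996% to 0.0165% of all miRNA counts. Levels are given as CPM, that is counts scaled to a common library size, after scaling of the libraries by the TMM method. By mean CPM, miR-132-5p ranked 227 among the 1929 miRNAs, miR-132-3p 239, miR-212-3p 254 and miR-212-5p 276.

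The arm with the highest mean level was miR-132-5p, with 46.4 CPM over the 12 livers, followed by miR-132-3p with 34.8, miR-212-3p with 29.9 and miR-212-5p with 21.7 CPM. Their mature forms are 22 bases long, except miR-212-5p with 23, and the part of length in these levels was not tested. miR-132-5p exceeded miR-132-3p in 11 of 12 libraries, with a mean log2 ratio of 0.43 ± 0.24 (SD, n = 12). For the neighbours miR-132-3p and miR-212-3p the mean log2 ratio was 0.21 ± 0.22 (SD, n = 12), with miR-132-3p higher in 10 of 12. The miR-212-3p level was above that of miR-212-5p in 11 of 12 libraries, with a mean log2 ratio of 0.47 ± 0.28 (SD, n = 12). miR-132-5p stood above both miR-212 arms in all 12 libraries. Summed over arms, miR-132 held 1.36 to 1.93 times the counts of miR-212. Efficiency of adapter ligation differs between small RNA sequences, and its part in these differences between miRNAs was not tested.

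**Figure D1:**
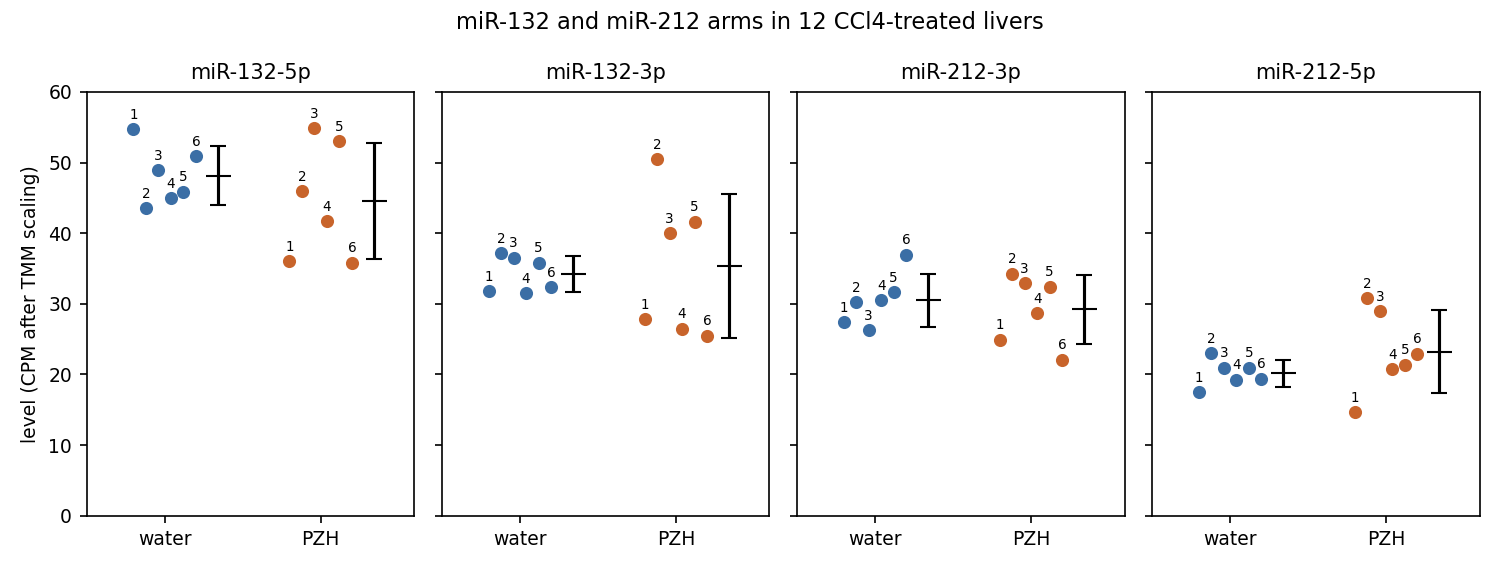
Levels of the 4 mature miRNAs in CPM after TMM scaling (y axis) in each liver of the water and PZH groups, with the replicate number beside each point and the mean ± SD (n = 6) at the right of each group. Means of the groups lie close together for each arm, and the points of the PZH group are more widely scattered, most of all for miR-132-3p (25.5 to 50.5 CPM against 31.5 to 37.1 CPM with water).

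The comparison asked whether PZH was accompanied by other miRNA levels than water in the CCl4-injured liver. No member of the cluster was called as different. Of 607 miRNAs that passed the filter on low counts, including all 4 members, the quasi-likelihood test of edgeR called 129, or 21.3%, at a Benjamini-Hochberg adjusted p under 0.05, and 0 of the 4 members were among them. At an unadjusted p under 0.05 there were 0 members, against 32.3% of all tested miRNAs, and DESeq2 and limma-voom also called 0 of the 4. The groups overlapped for all 4 members, while 10% of tested miRNAs had groups that did not overlap.

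The 3p arms, which carry the shared seed, gave mean levels that were nearly equal in the groups. miR-132-3p ran from 31.5 to 37.1 CPM with a median of 34.1 CPM in the water group. In the PZH group it ran from 25.5 to 50.5 CPM with a median of 33.9 CPM. In the PZH group 3 livers lay above every water liver and the other 3 lay below every water liver, so the groups interleaved with a wide PZH range. The means were 34.2 ± 2.57 and 35.3 ± 10.2 CPM (SD, n = 6), a log2 fold change of 0.047 with a 95% interval of -0.30 to 0.39 (edgeR adjusted p = 0.902). Without PZH replicate 2, the highest library, the log2 fold change was -0.061.

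For miR-212-3p the water livers ran from 26.3 to 36.9 CPM with a median of 30.4 CPM. The PZH livers ran from 22.1 to 34.3 CPM with a median of 30.5 CPM. The ranges overlapped over most of their width, and 2 PZH livers, replicates 1 and 6, were below every water liver. The means were 30.5 ± 3.75 and 29.2 ± 4.87 CPM (SD, n = 6), a log2 fold change of -0.059 with a 95% interval of -0.34 to 0.22 (edgeR adjusted p = 0.861). Its sign turned without water replicate 6 (0.0040) and without PZH replicate 6 (0.0043), and with a filter of 10 CPM in 6 libraries (0.032). Added together, the 2 miRNAs with the seed AACAGUC came to 64.7 ± 3.93 CPM in the water livers. In the PZH livers the sum was 64.5 ± 14.7 CPM (SD, n = 6 in each group).

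The 5p arms, usually described as the passenger strands, also showed no call. miR-132-5p ran from 43.6 to 54.7 CPM with a median of 47.4 CPM in the water group. In the PZH group it ran from 35.9 to 54.9 CPM with a median of 43.8 CPM. PZH replicates 1, 4 and 6 were below every water liver, and PZH replicate 3 was slightly above the highest. The means were 48.2 ± 4.18 and 44.6 ± 8.20 CPM (SD, n = 6), a log2 fold change of -0.11 with a 95% interval of -0.38 to 0.16 (edgeR adjusted p = 0.639).

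The least abundant arm, miR-212-5p, ran from 17.5 to 23.0 CPM with a median of 20.2 CPM in the water group. In the PZH group it ran from 14.6 to 30.8 CPM with a median of 22.2 CPM. Of the 6 PZH livers, 5 were above the water median, 2 of these above every water liver, and PZH replicate 1 was below every water liver. The means were 20.2 ± 1.89 and 23.2 ± 5.89 CPM (SD, n = 6), a log2 fold change of 0.21 with a 95% interval of -0.13 to 0.55 (edgeR adjusted p = 0.438). This was the largest absolute log2 fold change among the members, and 288 of the 607 tested miRNAs had a smaller one.

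In fold terms the intervals reached from 0.770 to 1.12 for miR-132-5p, from 0.812 to 1.31 for miR-132-3p, from 0.791 to 1.16 for miR-212-3p and from 0.912 to 1.46 for miR-212-5p. These are the fold changes compatible with the data at the 95% level, and a p that misses the threshold does not show that the levels were equal. The median log2 fold change of the members was -0.0059, against -0.029 over all 607 tested miRNAs.

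**Figure D2:**
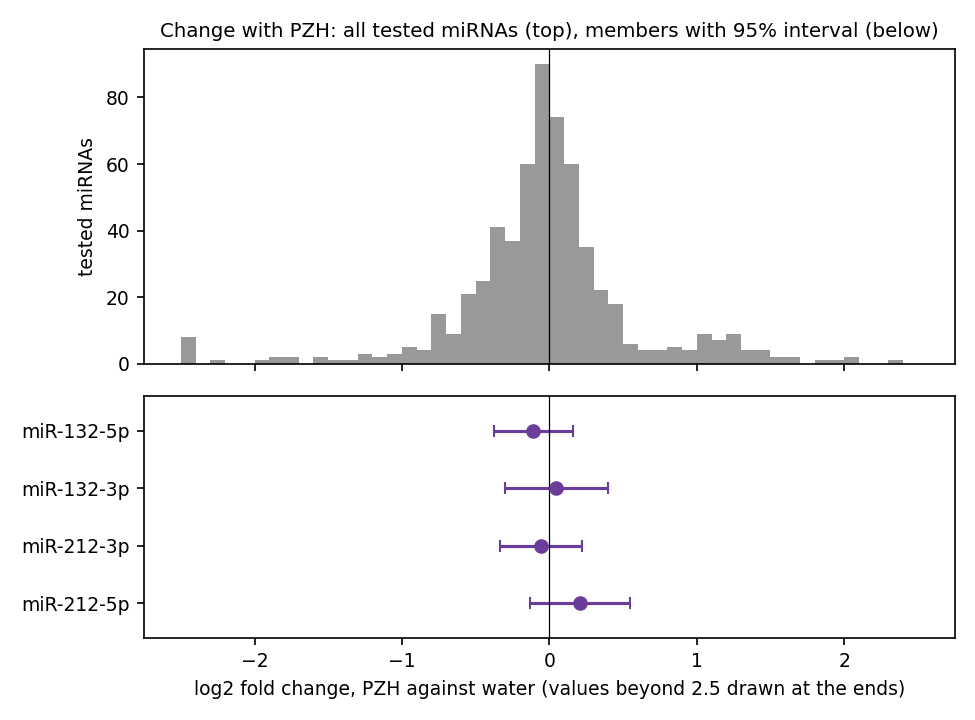
Upper panel, number of tested miRNAs (y axis) by log2 fold change of PZH against water (x axis) for all 607 tested miRNAs; lower panel, the 4 members with the 95% interval from edgeR. The 4 intervals all include 0, and the points lie between -0.11 and 0.21, in the middle of the distribution.

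The arms of both hairpins were close to balance. Among 160 hairpins with a mean of at least 10 counts on each arm, the median absolute log2 ratio between the 5p and 3p arms was 3.61, and 20 had an absolute ratio under 1 on that scale. miR-132 ranked 5 and miR-212 ranked 6 in closeness to an even ratio, and they leaned opposite ways. The mean log2 ratio was 0.43 for miR-132, in favour of the 5p arm, and -0.47 for miR-212, in favour of the 3p arm.

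The share of counts on the 5p arm of miR-132 ran from 54.0% to 63.2% in the water livers, with a median of 58.0%, and from 47.7% to 61.2% in the PZH livers, with a median of 57.1%. The lowest value belonged to PZH replicate 2, with an exact Clopper-Pearson 95% interval of 44.2% to 51.1%, and it was the only one of the 12 libraries with fewer counts on the 5p arm. For miR-212 the 5p share ran from 34.4% to 44.3% in the water livers, with a median of 39.4%, and from 37.0% to 50.9% in the PZH livers, with a median of 44.4%. Only PZH replicate 6, with an interval of 45.7% to 56.1%, had more counts on the 5p arm. The intervals cover counting error only, and the reads carry no molecular identifiers that would show independent molecules.

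The log2 ratio between 5p and 3p counts differed, PZH minus water, by -0.13 for miR-132 (95% interval -0.44 to 0.18, limma adjusted p = 0.622) and by 0.24 for miR-212 (95% interval -0.10 to 0.57, limma adjusted p = 0.326). Neither was called, where limma called 5 of the 160 hairpins, or 3.12%. Those 5 were miR-335, miR-503, miR-434, miR-487b and miR-877, named after their values were seen because they are so few. Their number depended on single libraries, reaching 15 without PZH replicate 2, 14 without water replicate 2 and 12 without water replicate 6, and falling to 3 without water replicate 3 or 4 or PZH replicate 3 or 6. At an unadjusted p under 0.05 there were 40 hairpins, neither of the members among them.

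**Figure D3:**
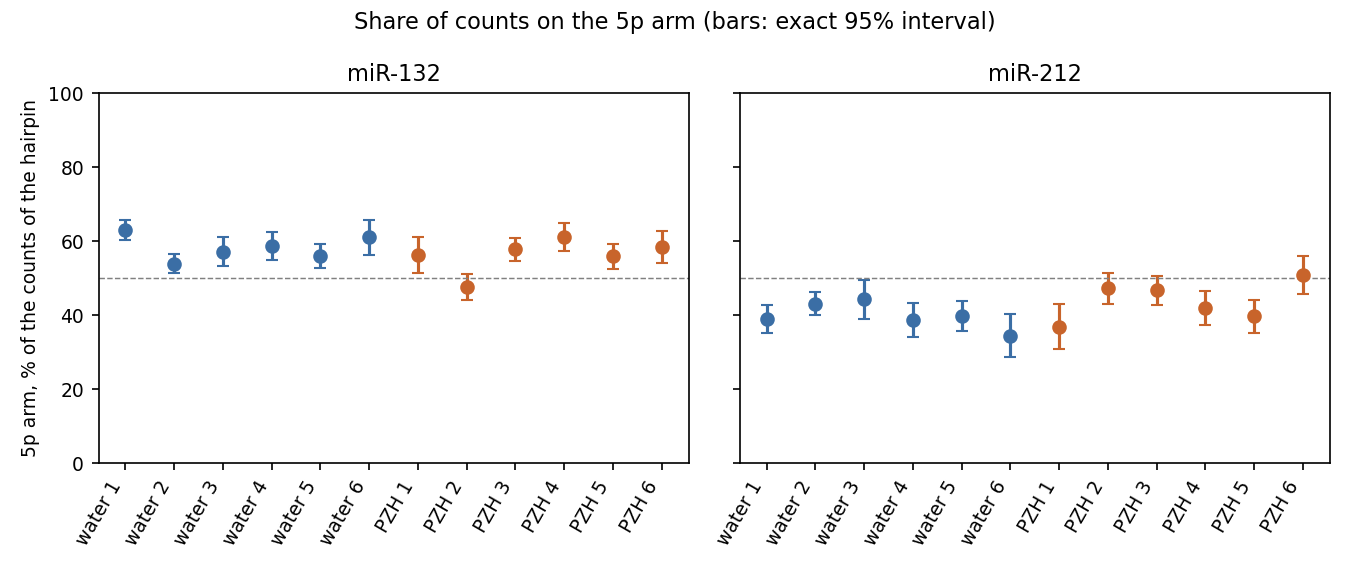
Percent of a hairpin's counts that fell on its 5p arm (y axis) in each of the 12 libraries (x axis, blue water, orange PZH), with exact 95% binomial intervals and a dashed line at an even split. miR-132 lies above that line in every library except PZH replicate 2 (47.7%), and miR-212 lies below it in every library except PZH replicate 6 (50.9%).

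The hairpins were also set against each other. In the water livers there were 1.14 ± 0.174 counts of miR-132-3p for each of miR-212-3p, and in the PZH livers 1.19 ± 0.183 (SD, n = 6). For the 5p arms the corresponding ratios were 2.42 ± 0.420 in the water livers and 1.98 ± 0.425 in the PZH livers (SD, n = 6). The ranges, 1.89 to 3.12 and 1.49 to 2.48, overlapped. These ratios were not tested.

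Where the PZH livers differed in appearance from the water livers was in their scatter. The coefficient of variation of miR-132-3p was 7.50% over the water livers and 28.9% over the PZH livers. Counting alone would give 3.75% to 7.86% per library for this miRNA. For miR-132-5p the coefficients were 8.68% and 18.4%, for miR-212-5p 9.36% and 25.3%, and for miR-212-3p 12.3% and 16.7%. On the log2 scale, the ratio of the PZH to the water SD was 3.81 for miR-132-3p, 2.85 for miR-212-5p, 2.15 for miR-132-5p and 1.46 for miR-212-3p.

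A larger spread with PZH was widespread in these libraries. Of 342 tested miRNAs that averaged 10 CPM or more, 245 had a larger SD in the PZH group, and the median ratio was 1.37. miR-132-3p ranked 10 of 342 by this ratio, miR-212-5p 26, miR-132-5p 56 and miR-212-3p 150. With each library left out in turn, the ratio stayed between 3.16 and 4.10 for miR-132-3p, and for miR-212-3p it lay between 1.08 and 2.22, the highest value without water replicate 6. The comparison of spreads was made after the values were seen and carries no test.

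**Figure D4:**
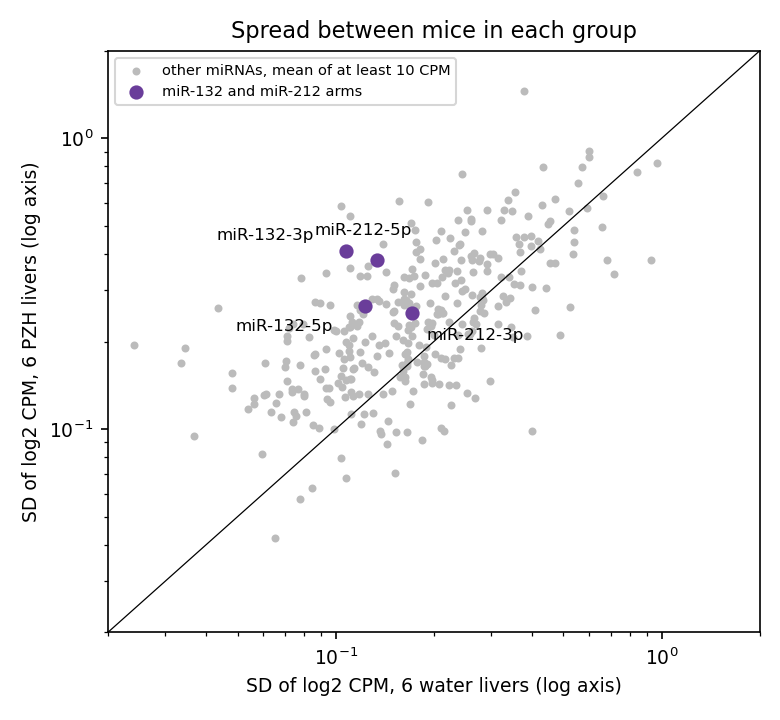
SD of log2 CPM over the 6 PZH livers (y axis, log axis) against that over the 6 water livers (x axis, log axis) for tested miRNAs that averaged 10 CPM or more; the line marks equal SDs and purple points are the 4 members. All 4 members lie above the line, with ratios of 1.46 to 3.81, as do 245 of the 342 miRNAs.

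Within the PZH group 3 of the 4 members were high and low in much the same livers. PZH replicates 2, 3 and 5 had the 3 highest levels of miR-132-3p, of miR-132-5p and of miR-212-3p in that group, while PZH replicates 1 and 6 were the lowest 2 in miR-132-5p and miR-212-3p. The order differed for miR-212-5p, which was highest in PZH replicates 2, 3 and 6 and lowest in PZH replicates 1 and 4. Summed over the 4 members, PZH replicates 2, 3 and 5 held 161, 157 and 148 CPM, and PZH replicates 1, 4 and 6 held 103, 118 and 106 CPM. The water livers all lay between 126 and 140 CPM. Over the 6 PZH livers the Pearson correlation of log2 CPM was 0.88 between miR-132-3p and miR-212-3p, 0.88 between miR-132-5p and miR-212-3p and 0.77 between miR-132-3p and miR-132-5p. With miR-212-5p it was 0.67 for miR-132-3p, 0.60 for miR-212-3p and 0.59 for miR-132-5p. Over the 6 water livers, where the levels varied less, the first 3 pairs gave -0.26, -0.13 and -0.51. There miR-212-5p gave 0.89 with miR-132-3p, above the PZH value, 0.038 with miR-212-3p and -0.79 with miR-132-5p. Over all 12 livers the first 3 pairs gave 0.66, 0.64 and 0.59. There miR-212-5p gave 0.65 with miR-132-3p, 0.39 with miR-212-3p and 0.26 with miR-132-5p. With the 2 libraries farthest from the median of miR-212-3p left out, miR-212-3p gave 0.40 with miR-132-3p, 0.14 with miR-132-5p and 0.41 with miR-212-5p. With the 2 farthest for miR-132-3p left out, miR-132-3p gave 0.43 with miR-212-3p, 0.65 with miR-132-5p and 0.67 with miR-212-5p. With the 2 farthest for miR-132-5p left out, miR-132-5p gave 0.26 with miR-132-3p, 0.14 with miR-212-3p and -0.027 with miR-212-5p. With the 2 farthest for miR-212-5p left out, miR-212-5p gave 0.33 with miR-132-3p, 0.033 with miR-212-3p and -0.048 with miR-132-5p. All of these are descriptions over few libraries that share library preparation and scaling.

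The miRNAs whose levels followed the 3p arms most closely over the 12 livers were sought among 338 others that averaged 10 CPM or more. For miR-132-3p the 5 highest Pearson correlations of log2 CPM (n = 12) were with miR-125b-1-3p (0.92), miR-500-3p (0.89), miR-652-3p (0.88), miR-125b-5p (0.87) and miR-214-3p (0.86). For miR-212-3p they were with the lymphoid miR-150-5p (0.87), miR-214-3p (0.82), miR-199b-3p (0.79), miR-214-5p (0.78) and miR-547-3p (0.78). miR-214-3p, which is made by stellate cells and other mesenchymal cells, stood in both sets. The other members stood lower, at ranks 24 to 29 beside these 338 for miR-132-3p and 14 to 64 for miR-212-3p. The correlation of miR-132-3p with miR-125b-1-3p was 0.76 over the 6 water livers and 0.97 over the 6 PZH livers, and with the 2 libraries farthest from the median of miR-132-3p left out it was 0.92. That of miR-212-3p with miR-150-5p was 0.76 and 0.95 within the groups and 0.79 without its 2 farthest libraries. The miR-212-3p level correlated with miR-214-3p at 0.52 within the water group and 0.99 within the PZH group. Not all of these relations were as high without the 2 farthest libraries: for miR-212-3p the correlation was then 0.63 with miR-214-3p, 0.55 with miR-199b-3p, 0.54 with miR-547-3p and 0.52 with miR-214-5p. For miR-132-3p it was 0.76 to 0.86 with the other 4, and over the water livers alone miR-652-3p and miR-125b-5p gave 0.24 and 0.21. None of these other miRNAs was called with PZH by edgeR.

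**Figure D5:**
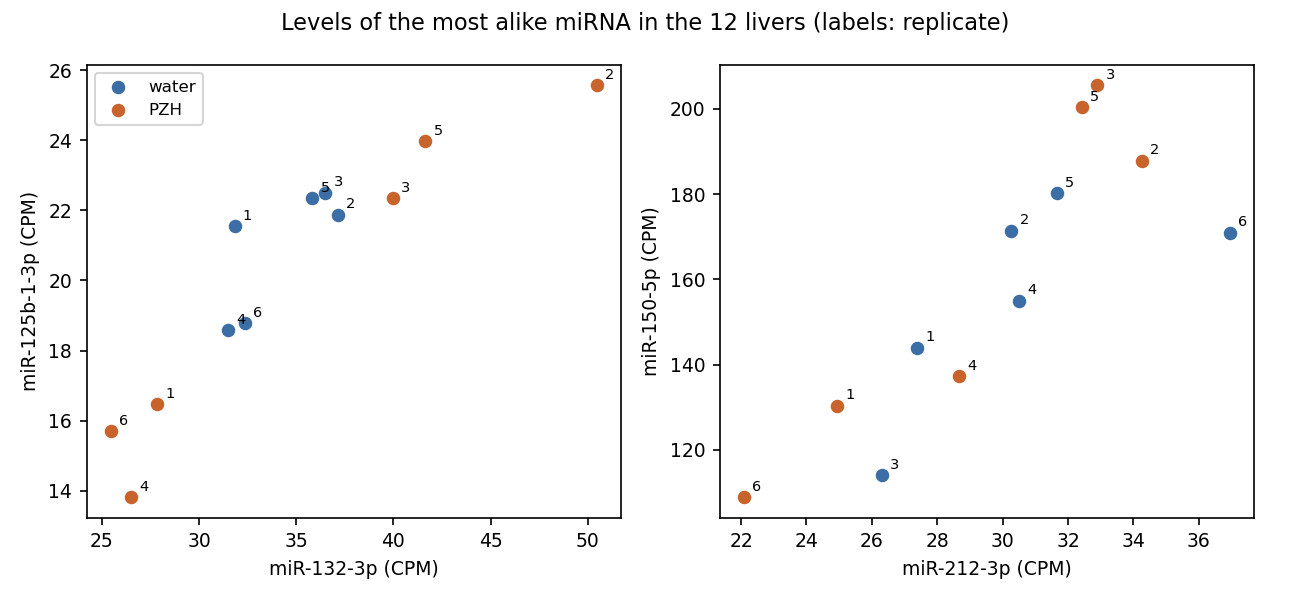
Levels in CPM of miR-125b-1-3p against miR-132-3p (left) and of miR-150-5p against miR-212-3p (right), 1 point per liver with its replicate number, blue water and orange PZH. PZH replicates 2, 3 and 5 lie towards the upper right and PZH replicates 1, 4 and 6 towards the lower left in each panel, with Pearson correlations of 0.92 and 0.87 over the 12 livers.

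Among miRNAs reported in stellate cell activation, in either direction, 25 were tested and edgeR called 7, of which 1 was higher and 6 lower with PZH, beside 9.88% and 11.4% of all tested miRNAs. The list's median log2 fold change was -0.015. The calls with the smallest p were the collagen repressor miR-29c-3p (-0.40), miR-335-5p (-0.77), miR-30a-5p (-0.31) and the inflammation-linked miR-146a-5p (-0.47), and the miR-30a-5p call ended without a filter on low counts and the miR-146a-5p call without water replicate 4. The number of calls in this list fell to 4 with a block for the replicate number, without that filter or without water replicate 4.

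Markers of the cell types in the liver were read beside these levels. Of all tested miRNAs edgeR called 21.3%, and 32.3% had an unadjusted p under 0.05. Of the 9 tested mesenchymal miRNAs of the miR-199, miR-214, miR-143 and miR-145 families, edgeR called 0, as did DESeq2 and limma-voom. In edgeR 1 had an unadjusted p under 0.05, and 1 was called under a filter of 10 CPM in 6 libraries. The summed level of these 9 was 64960 to 94401 CPM with water and 54281 to 94802 CPM with PZH. Most of this sum came from miR-143-3p, with a mean of 62268 CPM over all livers. The next highest in the list, miR-145a-5p, averaged 4358 CPM, so the sum and its correlations mainly describe miR-143-3p. The sum was highest in PZH replicates 2, 3 and 5 and lowest in PZH replicates 1 and 6 of that group. Over the 6 PZH livers it correlated at 0.73 to 0.94 with the 4 members. Over the 6 water livers its correlations were 0.40 with miR-132-3p, -0.70 with miR-132-5p, 0.36 with miR-212-3p and 0.72 with miR-212-5p. Water replicate 2 held the highest mesenchymal sum of that group, 94401 CPM, and the next highest water liver held 76078 CPM. The summed leukocyte miRNAs also correlated with all 4 members over the PZH livers, at 0.69 to 0.78. In the order miR-132-3p, miR-132-5p, miR-212-3p and miR-212-5p, the leukocyte values over the water livers were -0.21, -0.49, 0.47 and 0.011. The epithelial and biliary sum gave 0.49, 0.82, 0.48 and 0.44 over the PZH livers and 0.46, -0.54, 0.20 and 0.66 over the water livers. Water replicate 2 held 2192 CPM of this sum and the next highest water liver 1151 CPM, so these water values lean on 1 library. The summed stellate activation list gave -0.75, -0.69, -0.77 and -0.062 over the PZH livers and 0.30, -0.49, -0.54 and 0.42 over the water livers. Most of this sum came from miR-21a-5p, with a mean of 189862.5 CPM, and miR-122-5p, with 106021 CPM. As miR-122-5p is also in the hepatocyte list and the list mixes both directions, the sum is no measure of stellate cell activation. Of the 10 hepatocyte miRNAs 5 were called, all lower, beside 11.4% of all tested miRNAs. The count was 2 without a filter on low counts and 3 without water replicate 4 or PZH replicate 2 or 5. The smallest p belonged to miR-455-3p, miR-455-5p, miR-802-5p and miR-101b-3p. The most abundant, miR-122-5p (mean 106021 CPM) and miR-192-5p (55094 CPM), were not called (edgeR adjusted p = 0.786 and 0.169). The summed level was 236847 to 273257 CPM with water and 215528 to 280014 CPM with PZH, and mainly describes miRNAs that were not called. Over the PZH livers the sum correlated at -0.88 with miR-132-3p, -0.77 with miR-212-3p, -0.68 with miR-132-5p and -0.31 with miR-212-5p. Over the water livers these values were 0.25, -0.78, 0.25 and 0.039. The part of cell type makeup in the levels of the members was not tested.

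Counts of calls in the other lists stand beside 21.3% of all tested miRNAs called. These lists gave summed levels of 14100 to 17835 CPM with water and 11141 to 16901 CPM with PZH for leukocyte miRNAs (1 of 9 called higher and 2 lower, 5 called without PZH replicate 3), and of 12863 to 17096 against 10272 to 13900 CPM for the endothelial miR-126a arms (2 of 2 called, both lower). Erythroid miRNAs summed to 3661 to 5759 against 3237 to 5502 CPM (0 of 4 called by edgeR, DESeq2 and limma-voom, with 1 at an unadjusted p under 0.05), and epithelial and biliary miRNAs to 931 to 2192 against 864 to 1246 CPM (2 of 5 called, both lower, 0 with limma-voom, and 0 or 1 when any of 9 libraries, water replicates 2, 4, 5 and 6 and PZH replicates 1, 2, 3, 5 and 6, was left out). Without water replicate 2, 1 erythroid miRNA was called. The endothelial count was 1 in 16 of 22 alternatives. No list member in the table was at 0 in all libraries. Neural miRNAs were low, at 139.6 to 176 CPM with water and 109.6 to 139.8 CPM with PZH for 10 names together, and the neuron-specific miR-124-3p, at a mean of 0.619 CPM, was too low to be tested. Of the 7 neural miRNAs tested, miR-137-3p was called (2 called without PZH replicate 3), with a log2 fold change of -0.57.

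Other hairpins lie within 1 Mb on chromosome 11. The nearest, Mir22 at chr11:75463716-75463810, is 290 kb away on the same strand. Its abundant arm miR-22-3p averaged 22578 ± 3030 CPM in the water livers and 19858 ± 1368 CPM in the PZH livers (SD, n = 6). Its log2 fold change was -0.19, with an edgeR adjusted p of 0.169, and it was called without water replicate 2 (-0.26, adjusted p = 0.00883). Its correlation over the 12 livers was -0.29 with miR-132-3p and -0.084 with miR-212-3p. miR-22-5p had a log2 fold change of -0.19 (edgeR adjusted p = 0.181), and its correlations were 0.31 with miR-132-3p and 0.34 with miR-212-3p. The arms of miR-6926 and miR-3971, 305 and 378 kb away, had at most 8 counts in any library and were not tested.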

How the data were processed

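Small RNA was extracted from liver with Trizol and libraries were made with a TruSeq small RNA kit, per the labels. The table deposited by the authors holds raw counts per mature miRNA, 1 column per mouse, with no normalization. The submitters' processing notes name cutadapt, FastQC, BWA, DESeq2 and GRCm38, without versions or settings; the counting tool, strand use and multi-mapping are not stated by any source used here. The table has no cell equal to 1: its values are 0 or at least 2. The members and the 8 miRNA lists were chosen with earlier results of these data known. Counts were compared with edgeR 4.0.16 (R 4.3.3; quasi-likelihood, TMM, default filter, 607 of 1929 miRNAs kept), all 12 libraries, group only, with p adjusted over all tested miRNAs. Intervals of fold changes came from the edgeR statistic. Arm ratios were tested with limma 3.58.1 on log2 counts plus 1, over hairpins with a mean of at least 10 counts on each arm. Correlations used log2 CPM with a prior count of 2. The text names the members, same-seed miRNAs, hairpins within 1 Mb, the 5 most correlated miRNAs of each 3p arm and up to 4 of each list with the smallest p, where a result turns on them. The most abundant miRNAs of a list are also named where its sum mainly describes them. As alternatives, scaling was by RLE, TMMwsp or library totals, and the filter was dropped or set to 10 CPM in 6 libraries. DESeq2 1.42.0, limma-voom (plain and with quality weights), robust dispersion and a replicate block were also run, each library was left out in turn, and the arm ratios used a pseudocount of 0.5 and a minimum of 20 counts. The methods were also run on simulated counts, drawn independently for each miRNA with the same dispersion in both groups. Those counts lack the larger spread seen here with PZH. Sequences are from RefSeq (1647 names matched) and gene positions from GENCODE on GRCm38. The labels do not say how the mice were raised or processed together. The p-values set the difference between the groups against the spread between these samples. Housing or processing that differed between the groups could not be told apart from PZH.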

Additional observations from a re-analysis of the deposited data

How the results depend on the processing

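The absence of a call for the 4 members held in all 22 alternatives, with a smallest adjusted p of 0.142 (miR-212-5p without PZH replicate 1). The number of calls over all miRNAs lay between 94 and 144. The log2 fold changes of miR-212-5p and miR-132-5p kept their sign throughout. With 1 library left out, the log2 fold change lay between -0.061 and 0.12 for miR-132-3p, -0.11 and 0.0043 for miR-212-3p, -0.016 and 0.081 for miR-652-3p, -0.24 and 0.052 for miR-429-3p, -0.031 and 0.14 for miR-150-5p, -0.017 and 0.17 for miR-199b-3p, and -0.025 and 0.24 for miR-214-5p, each with a sign that turned. With a filter of 10 CPM in 6 libraries the values were 0.032 for miR-212-3p, 0.036 for miR-500-3p and 0.046 for miR-125b-5p, against negative values with the default filter, and with total-count scaling miR-125b-5p was at 0.0060. The cause was not tested. The arm ratios of the members had no call in any of 15 alternatives, while the number of hairpins called rose from 5 to 11 with a minimum of 20 counts per arm, where fewer hairpins were tested, and lay between 3 and 15 with 1 library left out.

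The mice of each group are numbered 1 to 6, and nothing in the labels ties equal numbers to each other as a pairing. With a replicate block, 114 miRNAs and 0 members were called, and the member log2 fold changes were 0.0056, -0.12, -0.067 and 0.17 for miR-132-3p, miR-132-5p, miR-212-3p and miR-212-5p. The block left the arm changes at -0.13 and 0.24, with 5 hairpins called. Same-numbered libraries correlated between -0.15 and 0.08 after centring on group means, and 1 of the 6 water libraries correlated best with its own number. Counts of 95 to 836 per member and library limit precision to a counting error of 3.46% to 10.3%.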
